A study of Mus musculus with 11 samples.

Results

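Genes of glucose use and of the response to low oxygen were followed in activated T cells. The 10 genes, chosen by name with earlier results of these data known, were Hk2, Pfkp, Slc2a1, Egln3, Ldha, Pdk1, Aldoa, Pgk1, Bnip3 and Tpi1. They are 10 of the 12393 genes measured, and their members are the 22 of 22690 probe sets (groups of short oligonucleotides that read the same transcript) whose annotation gives 1 of these symbols and no other. The T cells were of the mouse strain B10.BR and were cultured for 4 days with dendritic cells of the strain C57BL/6, a mismatch at the major histocompatibility locus to which T cells respond. The labels set the groups apart by the organ that supplied the dendritic cells, which were from liver (3 arrays, numbered 2, 3 and 4), MLN (3 arrays, numbered 2, 3 and 4), PLN (3 arrays, numbered 2, 3 and 4) or spleen (2 arrays, numbered 3 and 4). The labels do not spell out MLN and PLN, give neither age nor T cells without dendritic cells, and do not say whether arrays of an organ come from separate cultures, so the p-values reflect array-to-array spread only, part or all of which may be technical. Arrays are named here by organ and number, as liver culture 2. Each array reads the RNA of all cells in a culture, and fewer cells of a type cannot be told apart from less RNA per cell.

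A resting T cell uses little glucose, and on activation it takes up more and turns much of it into lactate while it divides. Slc2a1 encodes the main glucose transporter of activated T cells. Hk2 and Pfkp encode enzymes of the early, regulated steps of glycolysis, a hexokinase and the platelet-type phosphofructokinase. Aldoa, Tpi1 and Pgk1 encode aldolase, triosephosphate isomerase and phosphoglycerate kinase of the later steps. Ldha encodes a subunit of lactate dehydrogenase, which makes lactate from pyruvate, and Pdk1 a kinase that holds pyruvate back from the mitochondria. Egln3 encodes a prolyl hydroxylase that uses oxygen to mark the transcription factor HIF for destruction, and Bnip3 a mitochondrial protein that takes part in the removal of mitochondria. Most of them are known targets of HIF in one cell type or another.

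HIF binds DNA at a short core, ACGTG or GCGTG. The promoters of Hk2, Egln3, Bnip3 and Ldha are shown. They were picked because Hk2, Egln3 and Bnip3 were called lower in liver cultures in the fit described below and Ldha was not. Each line gives the 250 bases before the RefSeq transcription start in the build GRCm38.p6, 5′ to 3′ on the gene's strand, and the capitals mark ACGTG or GCGTG on either strand, read as CACGT or CACGC on the opposite one.
Hk2, chr6:82774455-82774704, minus strand: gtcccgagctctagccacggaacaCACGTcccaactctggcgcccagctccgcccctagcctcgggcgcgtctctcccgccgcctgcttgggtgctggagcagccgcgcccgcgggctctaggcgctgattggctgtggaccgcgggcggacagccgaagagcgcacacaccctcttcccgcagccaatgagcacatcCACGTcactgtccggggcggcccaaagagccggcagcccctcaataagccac
Egln3, chr12:54203875-54204124, minus strand: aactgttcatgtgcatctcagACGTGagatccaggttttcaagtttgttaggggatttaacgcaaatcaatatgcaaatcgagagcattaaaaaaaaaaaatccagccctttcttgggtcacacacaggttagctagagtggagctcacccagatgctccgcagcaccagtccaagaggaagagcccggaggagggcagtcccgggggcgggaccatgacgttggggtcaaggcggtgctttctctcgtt
Bnip3, chr7:138909507-138909756, minus strand: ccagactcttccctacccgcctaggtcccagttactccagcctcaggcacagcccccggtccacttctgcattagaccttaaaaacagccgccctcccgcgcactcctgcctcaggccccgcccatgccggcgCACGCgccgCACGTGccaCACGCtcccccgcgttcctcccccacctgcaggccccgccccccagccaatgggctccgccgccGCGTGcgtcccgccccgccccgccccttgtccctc
Ldha, chr7:46845554-46845803, plus strand: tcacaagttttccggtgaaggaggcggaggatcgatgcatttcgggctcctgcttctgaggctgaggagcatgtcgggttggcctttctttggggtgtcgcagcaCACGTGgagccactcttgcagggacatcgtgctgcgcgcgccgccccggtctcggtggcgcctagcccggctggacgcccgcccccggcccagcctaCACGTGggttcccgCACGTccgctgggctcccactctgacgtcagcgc
In windows of 300 bases, 250 before and 50 after the start, the 10 genes have 14 promoters in the RefSeq table. ACGTG on either strand stands in 8 of these 14, which belong to 7 of the 10 genes, against 19.62% of all 32851 promoters of the same length. Of the 8, 2 are overlapping Aldoa windows that hold the same match, and the percentage counts promoters and not genes. GCGTG stands in 6 of the 14, against 32.39%. CACGTG, which holds ACGTG on both strands, stands in 2 of the 14, those of Ldha and Bnip3, against 7.15%. Before the start, the printed Ldha promoter has 5 ACGTG matches, Hk2 has 2, Bnip3 2 and Egln3 1, where each CACGTG counts as 2. GCGTG adds 3 matches for Bnip3 and 0 for each of Ldha, Hk2 and Egln3. A match describes these letters and is not a measured binding site.

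All 22 probe sets were bright. Their deposited intensities ran from 451.1, for an Egln3 probe set in a liver culture, to 16893.2, for a Pgk1 probe set in a PLN culture. Levels are given as log2(intensity + 16) after quantile normalization, for the probe set with the highest mean of each gene. Levels of different genes are not compared, because different probe sets respond differently to the same amount of RNA. All 10 genes passed the filter on low values and were among the 7436 genes tested. T cell markers were at 10.87 to 11.38 on average over 8 genes on the 11 arrays, and 12 dendritic cell markers at 8.26 to 9.07. Of these 12, 10 passed the filter, and Zbtb46 and Ciita did not. Which cells made the dendritic cell marker transcripts was not tested. The 5 hepatocyte markers averaged 4.99 to 5.51, and none of them passed the filter.

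**Figure D1:**
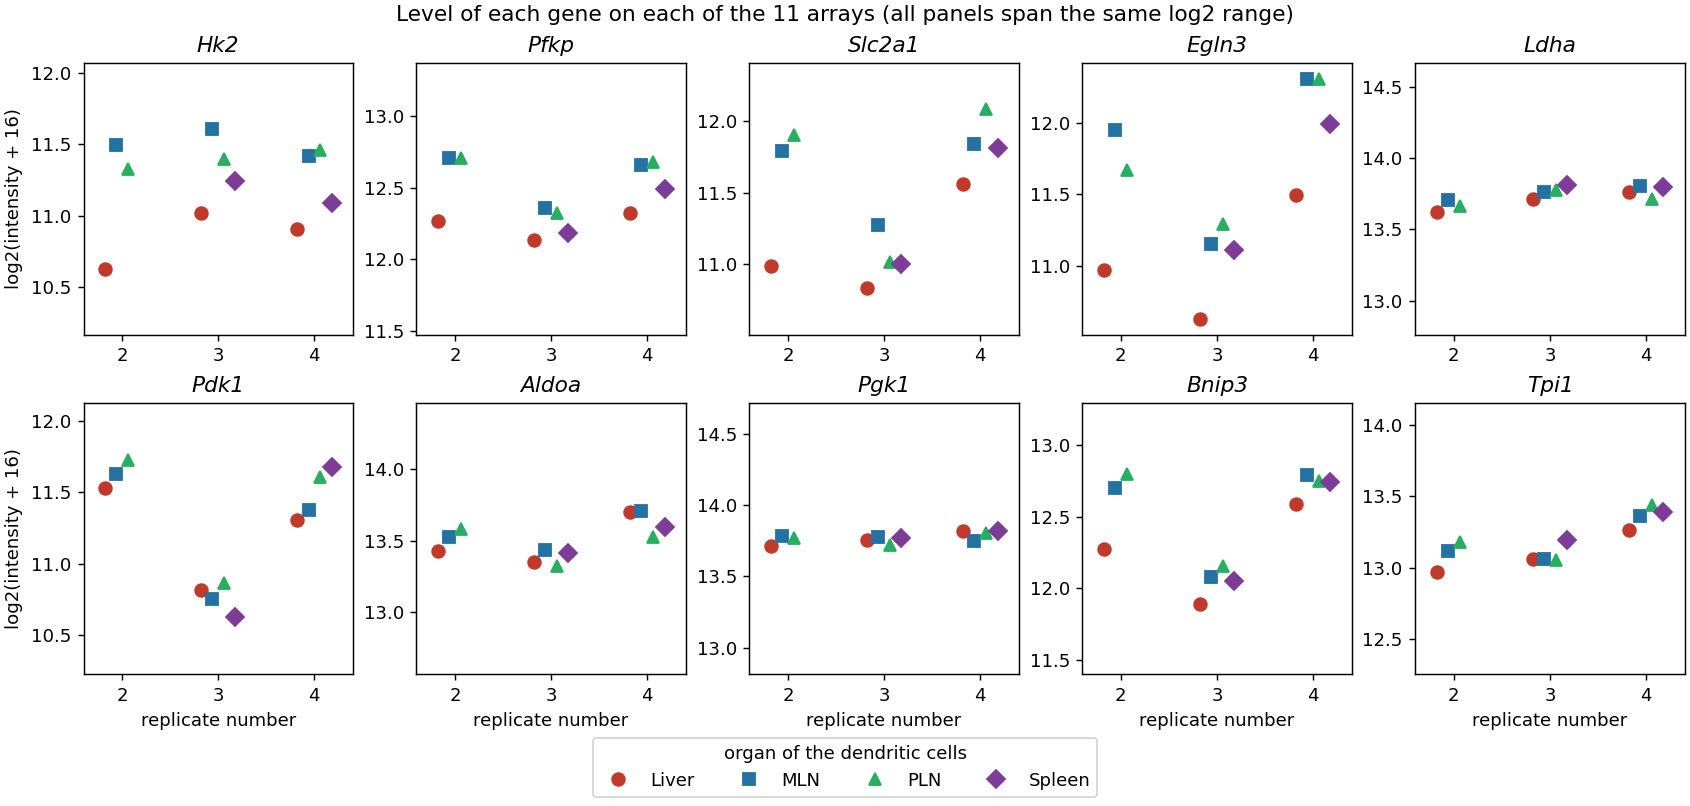
Level of each of the 10 genes on each of the 11 arrays, as log2(intensity + 16) after quantile normalization, against the replicate number in the labels; symbols give the organ of the dendritic cells and all panels span the same range. Liver points of Hk2, Pfkp, Slc2a1, Egln3 and Bnip3 are the lowest within every number, while the level of most genes moves between numbers.

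Among the entry steps of glycolysis, Hk2 was lowest in liver cultures. Its levels were 10.63, 11.02 and 10.91 in liver cultures 2, 3 and 4, and 11.49, 11.61 and 11.42 in the MLN cultures. PLN cultures gave 11.33, 11.40 and 11.46, and spleen cultures 3 and 4 gave 11.24 and 11.09. Every liver array lay below every other array, which held for 0.686% of all genes tested and for no other of the 10 genes. The organ means ran from 11.51 ± 0.10 in MLN and 11.40 ± 0.07 in PLN (SD, n = 3) through 11.17 ± 0.11 in spleen (SD, n = 2) to 10.85 ± 0.20 in liver (SD, n = 3). The MLN and PLN arrays overlapped, and the spleen arrays lay between them and liver.

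Pfkp was at 12.26, 12.13 and 12.32 in liver cultures 2, 3 and 4, against 12.70, 12.36 and 12.66 in MLN and 12.71, 12.33 and 12.68 in PLN. Spleen cultures 3 and 4 had 12.18 and 12.49. After normalization all 3 liver arrays lay below every MLN and every PLN array and overlapped only with spleen culture 3. The gap was small, with liver culture 4 at 12.3195 and PLN culture 3 at 12.3257. In the deposited intensities liver culture 4, at 5342.6, was above MLN culture 3 (5314.5) and PLN culture 3 (5161.5). In the dimmer Pfkp probe set liver culture 2, at 11.25, was above PLN culture 3, at 11.16. Within each number the normalized liver level of the brighter probe set was the lowest.

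Slc2a1 varied more. Liver cultures 2, 3 and 4 had 10.99, 10.83 and 11.56, MLN cultures 11.79, 11.28 and 11.84, PLN cultures 11.90, 11.02 and 12.08, and spleen cultures 3 and 4 had 10.999 and 11.81. Liver culture 4 was above the number 3 arrays of the other organs, so the groups overlapped. Within each number, however, liver was the lowest for this probe set, the brightest of Slc2a1. Organ means ran from 11.67 ± 0.57 in PLN and 11.64 ± 0.31 in MLN (SD, n = 3) through 11.41 ± 0.57 in spleen (SD, n = 2) to 11.13 ± 0.38 in liver (SD, n = 3). Neighbours in this order differed by less than either SD, while MLN and liver differed by more than either.

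Of the genes of the oxygen response, Egln3 had the widest range of the 10, 1.68 on the log2 scale. Its levels were 10.97, 10.63 and 11.50 in liver cultures 2, 3 and 4, and 11.95, 11.15 and 12.31 in MLN cultures. PLN cultures had 11.67, 11.29 and 12.31, and spleen cultures 3 and 4 had 11.11 and 11.99. Number 4 arrays were the highest and number 3 arrays the lowest in every organ, and within each number liver was the lowest. Organ means ran in the order MLN 11.80 ± 0.59, PLN 11.75 ± 0.51 (SD, n = 3), spleen 11.55 ± 0.62 (SD, n = 2) and liver 11.03 ± 0.44 (SD, n = 3). MLN, PLN and spleen differed by less than their SDs, and spleen and liver by more than the SD of liver and less than that of spleen.

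Bnip3 was at 12.27, 11.89 and 12.59 in liver cultures 2, 3 and 4, at 12.70, 12.08 and 12.80 in MLN, at 12.80, 12.15 and 12.75 in PLN, and at 12.05 and 12.75 in spleen cultures 3 and 4. The number 3 arrays lay below all others and liver was the lowest within each number.

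Pdk1 followed the number and not the organ. It had 11.53, 10.81 and 11.31 in liver cultures 2, 3 and 4, 11.63, 10.75 and 11.38 in MLN, 11.73, 10.86 and 11.61 in PLN, and 10.62 and 11.67 in spleen cultures 3 and 4. Organ means stayed between 11.15 and 11.40, while the 4 number 3 arrays lay below the other 7.

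The brightest probe sets of the later enzymes of glycolysis had narrow ranges. On the log2 scale Pgk1 stayed between 13.71 and 13.82, Ldha between 13.62 and 13.81, Aldoa between 13.32 and 13.71 and Tpi1 between 12.97 and 13.44. Quantile normalization narrowed the spread of the brightest ones. With intensities as deposited the same probe sets spanned 0.55 (Pgk1), 0.44 (Ldha) and 0.69 (Aldoa), against 0.11, 0.19 and 0.38 after it. For Hk2, Slc2a1, Egln3 and Pdk1 the spans before and after differed by less than 0.1.

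The comparison the study was designed for sets the organs against each other. In limma's fit of the 4 organ means without the replicate number, no organ comparison called any of the 10 genes at an adjusted p under 0.05. For liver against the mean of the other 3 organs this was 0 of 10 genes, beside 0% of the 7436 genes tested, with 3 of the 10 at an unadjusted p under 0.05. The F-test over the 4 organs called 0 of 10 (1 unadjusted) beside 0.0403% of genes, liver against MLN 0 (2 unadjusted) beside 0.161% (0.0672% lower and 0.0941% higher), and liver against PLN 0 (2 unadjusted) beside 0%. Liver against spleen called 0 (1 unadjusted) beside 0%, MLN against spleen 0 (1 unadjusted) beside 0%, MLN against PLN 0 (0 unadjusted) beside 0.0134%, and PLN against spleen 0 (0 unadjusted) beside 0%. The lowest adjusted p of the 10 genes was that of Hk2 in liver against MLN, 0.09996, at a log2 difference of -0.65 (SE 0.12), lower in 3 of 3 numbers.

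With the replicate number as a fixed block, 5 of the 10 genes were lower in liver than in the mean of the other organs, and none was higher. With the number as a random block (estimated correlation 0.555) only Hk2 and Egln3 passed, with adjusted p of 0.00806 and 0.0364, and Pfkp, Slc2a1 and Bnip3 had 0.0617, 0.132 and 0.231. Egln3 fell by 0.67 (SE 0.07) to 62.9% of the level in the other organs, with an adjusted p of 0.00108. Hk2 fell by 0.49 (SE 0.07) to 71.4%, with an adjusted p of 0.00463. Slc2a1 fell by 0.46 (SE 0.10), Pfkp by 0.27 (SE 0.05) and Bnip3 by 0.27 (SE 0.06), with adjusted p of 0.0341, 0.0161 and 0.0312. This fit called 1.39% of the genes tested as lower, 0.753% as higher and 2.14% in either direction. The median difference of the 10 genes was -0.20, against 0.01 over all genes tested.

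The other 5 genes had smaller differences and did not pass. The log2 differences were -0.12 (SE 0.04) for Tpi1, -0.10 (SE 0.08) for Pdk1, -0.05 (SE 0.03) for Ldha, -0.02 (SE 0.05) for Aldoa and -0.01 (SE 0.04) for Pgk1, with adjusted p of 0.194, 0.580, 0.543, 0.904 and 0.930. Those of Aldoa and Pgk1 turn to 0.02 each with intensities as deposited and to 0.03 each after median centring.

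**Figure D2:**
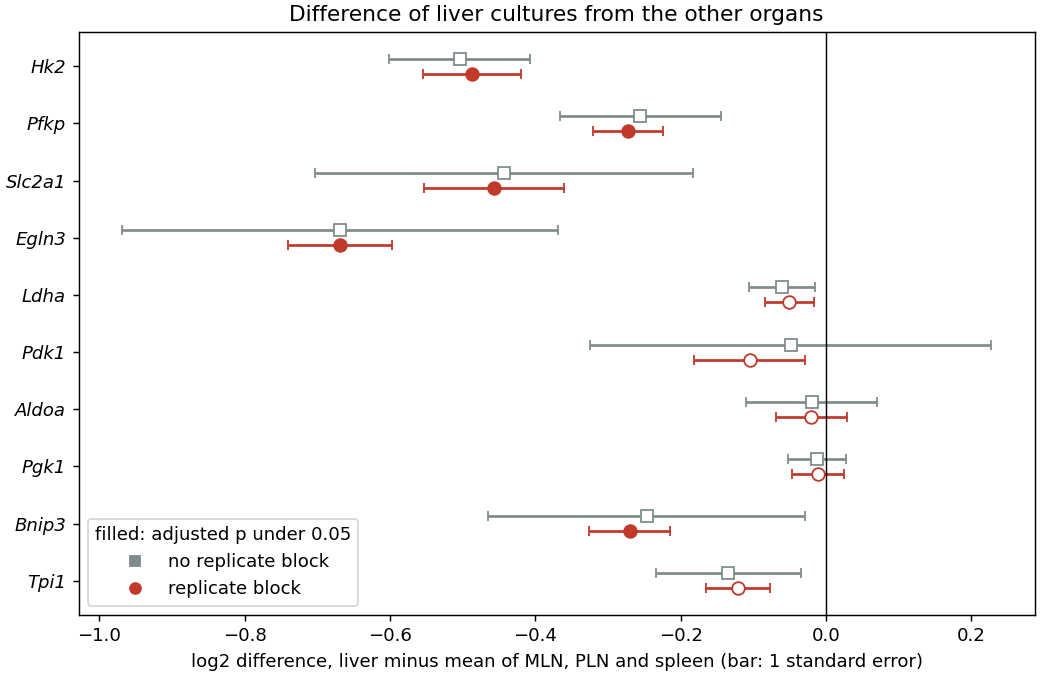
Log2 difference of liver cultures from the mean of MLN, PLN and spleen cultures for each of the 10 genes, without (squares) and with (circles) the replicate number as a block; bars are 1 standard error and filled symbols have an adjusted p under 0.05. The differences of the 2 fits nearly coincide, and the standard error of Egln3 is 0.30 without and 0.07 with the block.

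In the probe sets tested, the 5 genes were also those in which liver was the lowest organ within each number, as for 5.0% of all genes. This restates values that the fit with the block used. Dimmer probe sets differed in number 3, where liver was above spleen for Pfkp (10.87 against 10.85) and above MLN for Slc2a1 (10.25 against 10.20). For the probe sets tested, differences from the mean of the other organs in numbers 2, 3 and 4 were -0.84, -0.55 and -0.70 for Egln3. They were -0.78, -0.40 and -0.41 for Hk2, and -0.86, -0.27 and -0.35 for Slc2a1. Pfkp had -0.44, -0.16 and -0.29, and Bnip3 -0.48, -0.20 and -0.18. Each of the 5 was farthest from the other organs in number 2, where spleen has no array. In a fit with a liver term for each number, 0 of the 10 genes passed the test that the liver difference varied between numbers (2 at an unadjusted p under 0.05, Slc2a1 and Bnip3; lowest adjusted p 0.821), and 1 of 7436 genes did.

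How many of the 5 genes passed depended on single arrays. With the block, the count of 5 was 1 without Liver replicate 2 (Egln3 alone). It was 2 when Liver replicate 4, MLN replicate 2 or PLN replicate 2 was left out, and 3 when either spleen array was. Egln3 passed whichever of the 11 arrays was left out, with an adjusted p of at most 0.0228. Hk2 passed without 10 of the 11 and had 0.0581 without Liver replicate 2. Pfkp passed without 7 of them, and Slc2a1 and Bnip3 without 4. With intensities as deposited Hk2, Slc2a1 and Egln3 passed, and after median centring Hk2 and Egln3.

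Against MLN and against PLN the same 5 genes were called lower in liver in the fit with the fixed block. With the random block Hk2, Egln3 and Pfkp passed against MLN and Hk2 alone against PLN. Against MLN, Egln3 fell by 0.77 (SE 0.08), Hk2 by 0.65 (SE 0.08), Slc2a1 by 0.51 (SE 0.11), Pfkp by 0.34 (SE 0.06) and Bnip3 by 0.27 (SE 0.07); adjusted p ran from 0.000658 to 0.0394, and 2.25% of genes were called lower, 1.88% higher and 4.13% either way. The count dropped to 2 when Liver replicate 2 or MLN replicate 2 was left out, and to 3 when Liver replicate 4 or MLN replicate 3 was; Hk2 and Egln3 passed without any 1 of the 11 arrays.

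Against PLN, Egln3 fell by 0.72 (SE 0.08), Hk2 by 0.54 (SE 0.08), Slc2a1 by 0.54 (SE 0.11), Pfkp by 0.33 (SE 0.06) and Bnip3 by 0.32 (SE 0.07); adjusted p ran from 0.00420 to 0.0402, and 1.09% of genes were called lower, 0.417% higher and 1.51% either way. No gene passed when Liver replicate 2 or PLN replicate 4 was left out (count 0). The count was 1 with PLN replicate 2 left out, 2 with Liver replicate 4 left out, and 3 when MLN replicate 2 or MLN replicate 3 was. These comparisons share the liver arrays and are not independent of each other.

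For the tested probe sets of Egln3, Hk2, Slc2a1, Pfkp and Bnip3, the spleen mean lay between that of liver and those of MLN and PLN. This did not hold for every gene or probe set. Spleen had the lowest organ mean of Pdk1 (11.15) and the highest of Ldha (13.80) and Tpi1 (13.29). In the dimmer probe sets spleen was below liver for Pfkp (11.02 against 11.09) and above MLN for Egln3 (10.42 against 10.28). Against spleen, liver had log2 differences with the block of -0.52 (SE 0.10) for Egln3, -0.32 (SE 0.13) for Slc2a1, -0.27 (SE 0.09) for Hk2, -0.22 (SE 0.08) for Bnip3 and -0.15 (SE 0.07) for Pfkp. None of the 10 genes passed, with 6 at an unadjusted p under 0.05 and a lowest adjusted p of 0.249, and neither did any of the 7436 genes (0%). Spleen has 2 arrays and none numbered 2. Hk2 was 0.39 (SE 0.09) higher in MLN than in spleen with the block, with an adjusted p of 0.0986, where 0.215% of genes were called. MLN and PLN did not differ in any of the 10 genes by this test, beside 0.148% of genes called (0.0269% higher and 0.121% lower in MLN), and had differences within 0.15 for all of them.

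The F-test over the 4 organs with the block called Egln3, Hk2 and Pfkp, 3 of the 10 genes beside 1.99% of all genes, with adjusted p of 0.00229, 0.00452 and 0.0227. Slc2a1 had 0.0665 and Bnip3 0.0706.

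Values of cell type markers moved with the liver cultures as well, and their part in these differences was not tested. All 7 cycling cell markers were higher in liver, by a median of 0.18 with the block (0 called, 4 at an unadjusted p under 0.05), with list means of 10.91 to 11.09 in liver and 10.61 to 10.94 elsewhere. All 8 T cell markers were higher too, by a median of 0.15 (0 called, 2 unadjusted). The 10 macrophage, monocyte and Kupffer cell markers averaged 7.17 to 7.26 in liver and 7.16 to 7.18 in spleen cultures, against 6.57 to 6.94 in MLN and PLN. Of these 10, 5 passed the filter. With the block, 1 of them was called higher in liver, beside 0.753% of all genes, and 2 in the F-test over organs, beside 1.99%. Their liver differences ran from -0.02 for Csf1r to 0.74 for Lyz2, with a median of 0.12. Dendritic cell markers averaged 8.38 to 8.83 in liver and 8.26 to 9.07 elsewhere. Of the 10 tested, 5 were below the other organs in liver with the block and 5 above. Of these, 1 was called lower, beside 1.39% of all genes.

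The replicate numbers set the level of most of the 10 genes more than the organ did, and the labels do not say what the numbers stand for. The number took 91.7% of the variance of Pdk1 over the 11 arrays, 82.2% of that of Bnip3, 77.7% of Tpi1, 63.8% of Slc2a1 and 61.7% of Egln3. The organ took a further 3.3%, 14.6%, 14.6%, 27.3% and 35.9%. Hk2 was the reverse, with 5.7% for the number and 88.0% for the organ, and Pfkp had 47.2% and 48.7%. Over all genes tested the number took 57.9% and the organ 22.0%.

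From number 2 to number 3, in a fit with an organ term, 5 of the 10 genes were called lower and none higher. Of all genes, 9.59% were called lower, 9.29% higher and 18.9% either way. Pdk1 fell by 0.87 (SE 0.09) to 54.7% of its number 2 level, with an adjusted p of 0.000148. Bnip3 fell by 0.55 (SE 0.06), Slc2a1 by 0.52 (SE 0.11), Egln3 by 0.49 (SE 0.08) and Pfkp by 0.29 (SE 0.06), each in 3 of 3 organs. Their adjusted p were 0.000397, 0.00805, 0.00233 and 0.00476. Hk2 had a log2 difference of 0.20 (SE 0.08) in the other direction and did not pass (adjusted p 0.0966). Slc2a1 no longer passed without MLN replicate 2 or PLN replicate 2, nor Pfkp after median centring.

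From number 3 to number 4, 7 of the 10 genes were called higher and none lower. Of all genes, 22.3% were called higher and 43.3% either way. Egln3 rose by 0.98 (SE 0.07), 1.97 times its number 3 level, with an adjusted p of 2.4e-06. Slc2a1 rose by 0.79 (SE 0.10), Pdk1 by 0.73 (SE 0.08) and Bnip3 by 0.68 (SE 0.06), with adjusted p of 7.5e-05, 2.5e-05 and 5.1e-06. Pfkp, Tpi1 and Aldoa rose by 0.29, 0.27 and 0.25 (SE 0.05 each), all 7 genes in 4 of 4 organs. Hk2, at -0.10 (SE 0.07), Ldha, at 0.00 (SE 0.04), and Pgk1, at 0.04 (SE 0.04), did not pass. Aldoa no longer passed with intensities as deposited (adjusted p 0.0928), nor did Aldoa and Tpi1 after median centring (0.210 and 0.0822). The 2 comparisons share the number 3 arrays.

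**Figure D3:**
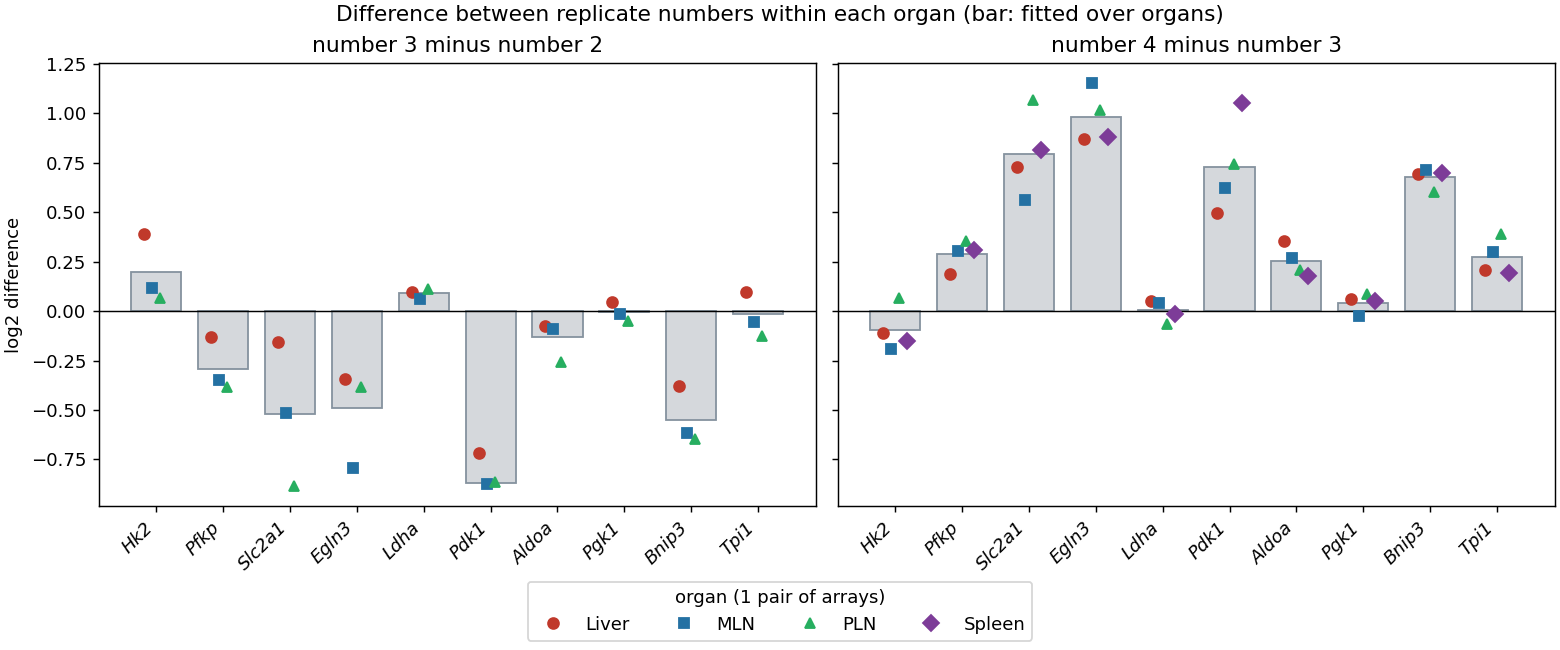
Log2 difference between arrays of successive replicate numbers within each organ (points; spleen has no array numbered 2) and the difference fitted over organs (bars) for each of the 10 genes. The points of Pdk1, Bnip3, Egln3, Slc2a1 and Pfkp lie below 0 on the left and above 0 on the right in every organ.

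All 4 number 3 arrays lay below all 4 number 4 arrays for Slc2a1, Egln3, Pdk1, Aldoa, Bnip3 and Tpi1, 6 of the 10 genes, beside 19.2% of all genes. For Pdk1 and Bnip3 they lay below all other arrays, as for 6.35% of all genes. Dendritic cell markers averaged 8.83 to 9.07 on the number 3 arrays and 8.26 to 8.56 on the others. From number 3 to 4, 8 of the 10 tested markers were called lower and 1 higher, beside 43.3% of all genes called. Over the same step 3 of 8 T cell markers were called higher and 2 lower. Of the others, 3 of 7 cycling cell markers and 2 of 5 macrophage markers were called lower, and 2 of 4 B cell markers higher. Their part in these differences was not tested.

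Probe sets of the same gene differed in size of change. With the block all 22 probe sets were lower in liver than in the mean of the other organs, 5 of them passing in a fit of 11797 probe sets that called 0.873% lower. The further Egln3 probe set, which is dimmer, fell by 0.76 (SE 0.13). The dimmest Pgk1 probe set had a log2 difference of -0.27 (SE 0.07), against -0.01 (SE 0.04) and -0.03 (SE 0.04) for the brighter ones, and the dimmest Tpi1 probe set had -0.29 (SE 0.07), against -0.12 for each of its brighter ones. Neither passed (adjusted p 0.0747 and 0.0626). Against PLN 21 of the 22 were lower, the exception being the brightest Aldoa probe set at 0.02. From number 2 to 3, 18 of the 22 were lower, 12 of them passing beside 8.34% of probe sets, and the probe sets of Pgk1 and of Tpi1 had differences of both signs. From number 3 to 4, 21 of the 22 were higher, 18 of them passing beside 19.3% of probe sets. The further Egln3 and Pdk1 probe sets rose by 1.47 (SE 0.13) and 1.05 (SE 0.09), and the dimmest of the 4 Aldoa probe sets by 0.59 (SE 0.06), against 0.25 (SE 0.05) for the brightest.

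Other genes of the same pathways were counted in the same fits, in which 2.14% of all genes passed for liver and 22.3% were called higher and 21.0% lower from number 3 to 4. Of 14 other glycolysis genes tested, 12 were below the other organs in liver with the block, with a median of -0.15, and 1 passed. That was Slc2a3, which encodes a further glucose transporter and was chosen after its values were seen; it fell by 0.50 with an adjusted p of 0.0056. The genes taken by the naming rule had log2 differences of -0.03 for Pkm, the pyruvate kinase of activated T cells, -0.14 for the phosphoglycerate mutase gene Pgam1, -0.21 for Pfkm and -0.23 for Bpgm, and none passed. From number 3 to 4, 7 of the 14 were called higher and 2 lower. Gapdh, Eno1 and Gpi1 had no probe set annotated to them alone and are not among the 14.

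All 7 oxygen sensing genes tested were below the other organs in liver with the block, with a median of -0.27 against 0.01 over all genes. The smallest difference was -0.03 (SE 0.13) for Hif3a, and without the block 6 were below and 1 above. Hif1a, the oxygen-regulated subunit of HIF, fell by 0.28 with an adjusted p of 0.0161. Its partner Arnt, at -0.27, the related Epas1, at -0.54, and Vhl, whose product tags the hydroxylated subunit for destruction, at -0.23, did not pass. From number 3 to 4, 4 of the 7 were called higher and 1 lower, beside 22.3% and 21.0% of all genes. Hif1a fell by 0.50. Epas1 rose by 0.94, Egln1 by 0.92, Vhl by 0.58 and Egln2 by 0.43. Egln1 and Egln2 were chosen after their values were seen.

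Of 21 other HIF target genes tested, all 21 were below the other organs in liver with the block, with a median of -0.29 against 0.01 over all genes. Some of these differences were smaller than their SE, the smallest being -0.01 (SE 0.04) for Mif. Without the block 20 were below and 1 above. With the block 4 passed. These 4 were chosen after their values were seen. Ndrg1 fell by 0.59, P4ha2, a collagen prolyl hydroxylase gene, by 0.59, Ero1a, an oxidase of the endoplasmic reticulum, by 0.56, and Mxi1, a MAX-binding repressor gene, by 0.47, with adjusted p of 0.0084, 0.0295, 0.0097 and 0.0123. Of the genes taken by the rule, Gys1 had -0.46, Kdm3a -0.40, Bhlhe40 -0.29 and Higd1a -0.16, and none passed. From number 2 to 3, 12 of the 21 were called lower and none higher, beside 9.59% and 9.29% of all genes. By sign, 19 were below 0 and 2 above. From number 3 to 4, 16 were called higher and none lower, beside 22.3% and 21.0% of all genes. By sign, 20 were above 0 and 1 below. Without the block none of the genes of these 3 lists passed for liver (0, 0 and 1 at an unadjusted p under 0.05).

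**Figure D4:**
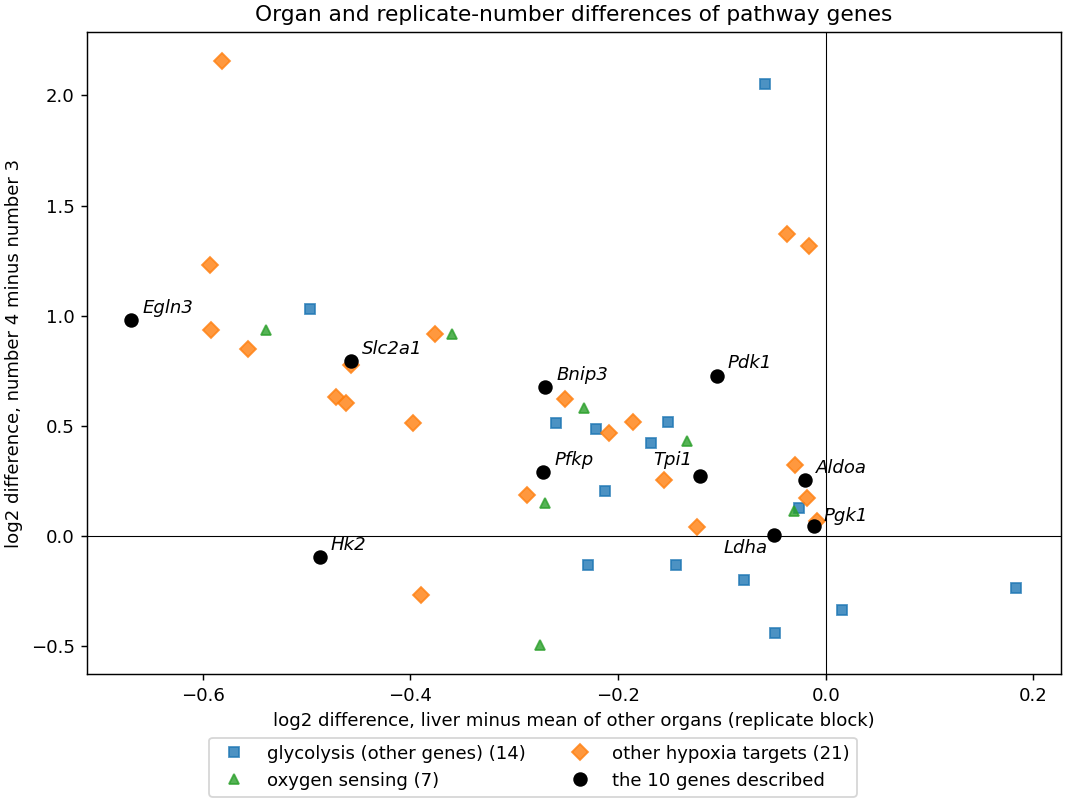
Log2 difference of liver cultures from the other organs with the replicate number as a block (horizontal) against the log2 difference of number 4 from number 3 (vertical), for the 10 genes (black) and the tested genes of 3 related lists. All 21 other HIF targets lie left of 0, some of them close to it, and 20 of them lie above 0. Hk2 lies left of 0 and slightly below it, and Pgk1 and Ldha lie near 0 on both axes.

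The genes whose pattern over the 11 arrays was most like the mean of the 10 (each centred on its own mean) were Selenbp1, Acvr1b, Tec, Pgm1 and Syce2, with Pearson correlations of 0.974, 0.968, 0.964, 0.964 and 0.964. The 11 arrays share organs and numbers, so these are descriptions. Their log2 differences of liver from the other organs with the block were -1.31, -0.23, -0.44, -0.35 and -0.37, values that their choice by this pattern bears on. After the number means were subtracted, the closest genes were H2-Q10, Tiparp, Jmjd6, Acvr1b and Abcg2, with correlations of 0.990, 0.978, 0.973, 0.972 and 0.969. Their liver differences were -1.09, -0.55, -0.46, -0.23 and -0.29.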

How the data were processed

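RNA from T cell cultures was read on 11 single-colour mouse arrays. The deposited values are scaled intensities, linear and not log2, 1 for each probe set on each array. The labels name total RNA and Invitrogen labelling. The software behind these intensities is not given in the sources used here. From the values, each array appears to have been scaled to a common trimmed mean, which computed here was 500.2. Array medians lay at 144.3 to 170.4, and precision is limited by how many arrays there are. No 2 arrays held identical values, with pairwise correlations of 0.966 to 0.985.

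Intensities were transformed as log2(intensity + 16) and quantile normalized over all 22690 probe sets, and 64 control probe sets were then left out. Each gene took its probe set of highest mean, and the 7436 genes in the upper 60% by mean (an intensity of 104.7) were tested. Left out were 691 probe sets that list several symbols and 1555 that list none. Differences were fitted with limma 3.58.1 in R 4.3.3 (lmFit, eBayes with a variance trend), with Benjamini-Hochberg adjustment over all genes tested at 0.05. The organ fit had 7 residual degrees of freedom. The fit with the replicate number as a block, and the comparisons between numbers, had 5.

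Arrays that share a replicate number deviated together. Deviations from the organ means had correlations across genes of 0.412 to 0.731 in the 15 pairs that share a number. In the 30 pairs that share neither number nor organ they were -0.708 to 0.0843. Deviations from an organ mean cancel out within that organ, so the second range is not independent of the first. The labels do not say what a number marks.

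The 10 genes, the pathway and marker lists and the comparisons were chosen with earlier results of these data known. The naming rule takes all 10 genes, up to 4 genes of each pathway list by the lowest p of the organ F-test without the block, and the 5 genes of most similar pattern over all arrays and the 5 after number means were subtracted; others are said to be chosen after their values were seen. Alternatives were other scalings, pseudocounts, no filter, all probe sets, no variance trend, a fixed and a random block, and each array left out. The fits were tested on simulated data, where the fit with the fixed block made false calls more often than its threshold allows. Calls of that fit close to the threshold, such as those of Slc2a1 and Bnip3 in liver cultures, are therefore less certain. Promoter sequences are RefSeq's, build GRCm38.p6, matched by symbol for all 10 genes. Genome coordinates of the probe sets were not used here.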

Additional observations from a re-analysis of the deposited data

How the results depend on the processing

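With the replicate number as a block, the count of the 10 genes called went from 0 to 3 in the organ F-test and to 5 each in liver against the other organs, liver against MLN and liver against PLN. It stayed at 0 in the other organ comparisons. With a random replicate block these counts were 1, 2, 3 and 1. With the replicate block and intensities as deposited they were 3, 3, 4 and 2, and with the replicate block and median centring 2, 2, 3 and 2. Leaving out each array in turn gave 0 throughout without the block; with the replicate block it gave 2 to 4, 1 to 5, 2 to 5 and 0 to 5. Number 3 against 2 called 5 genes, 4 to 5 with an array left out and 2 without the organ term; number 4 against 3 called 7 throughout the arrays left out. The cause was not tested, beyond the fewer arrays in these fits. Without the block, other scalings, pseudocounts, filters, probe sets and variance settings left the organ counts at 0, and they kept the counts between numbers within 1.5 times. Each scaling moved the median of all genes by less than 0.1.

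Some differences changed sign, none of them called. In liver against spleen with the replicate block, Ldha, Aldoa, Pgk1 and Tpi1 went from -0.07, -0.01, -0.03 and -0.15 to 0.14, 0.19, 0.20 and 0.03 as deposited and to 0.22, 0.27, 0.28 and 0.11 after median centring. In liver against the other organs, Aldoa and Pgk1 were 0.036 and 0.034 as deposited, 0.045 and 0.043 after median centring, and with the replicate block 0.016 and 0.018, and 0.027 and 0.029. With an array left out Aldoa ran from -0.125 to 0.052 (with the block -0.082 to 0.027, above 0 in 2 fits at 0.014 and 0.027), Pgk1 from -0.040 to 0.013 (with the block -0.032 to 0.017) and Pdk1 from -0.224 to 0.154. Between numbers 2 and 3, Ldha was -0.069 as deposited and -0.054 after median centring, and Tpi1 was 0.0046 without the organ term; with an array left out Pgk1 ran from -0.038 to 0.012 and Tpi1 from -0.056 to 0.029. Between numbers 3 and 4, Ldha was -0.026 under both scalings and -0.013 to 0.022 with an array left out. The 2 spleen arrays and the normalization of the brightest probe sets limit what could be detected.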

Other observations

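Among the tested genes of the branches that lead away from glycolysis, none passed in liver cultures. Pdhx, Pdp1, Pdp2 and Mpc2, and G6pdx of the pentose phosphate pathway, had no probe set annotated to them alone. Of 6 tested genes for the entry of pyruvate into mitochondria, 5 were above the other organs with the replicate block, by a median of 0.05, and none passed. The naming rule takes Pdha1 and Pdhb, subunits of pyruvate dehydrogenase, at 0.08 and 0.02, Dld, a further subunit, at 0.17, and the kinase gene Pdk3 at -0.09. From number 3 to 4, 3 of the 6 were called lower and 1 higher. Among them were Dld, which fell by 0.58, and Pdk3, which rose by 0.22 (adjusted p 0.00012 and 0.023). Of 7 tested genes of the pentose phosphate pathway, 4 were above and 3 below, by a median of 0.03, and none passed, with H6pd at 0.18, Pgls at -0.18, Pgd at -0.06 and Rpia at 0.04.

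Among 10 tested genes of growth signalling, 1 passed for liver with the block, beside 2.14% of all genes, and none without it. Txnip, whose product restrains glucose uptake and which was chosen after its values were seen, rose by 0.58 in liver (adjusted p 0.047; without the block 0.44, SE 0.67, adjusted p 0.9998) and by 1.82 from number 3 to 4. Myc, a transcription factor that raises glycolytic genes on T cell activation, had a mean level of 11.36 with liver cells, 11.84 with MLN, 11.59 with PLN and 11.32 with spleen, and did not pass for liver (-0.22, adjusted p 0.22). Mtor, Tsc1 and Tsc2, of the mTOR pathway, had log2 differences of -0.04, 0.05 and -0.05.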
